A study of Mus musculus with 6 samples.

Results

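Fibronectin, the tenascins, the thrombospondins, periostin, osteopontin and fibulin-2 are glycoproteins of the extracellular matrix. The genes examined here are Fn1, Tnc, Tnxb, Postn, Spp1, Thbs1, Thbs2, Thbs3, Thbs4 and Fbln2. They were chosen by name, as the rows of the count table that carry 1 of these symbols, and all 10 were found among its 55487 genes. Fibronectin is assembled by cells into fibrils through integrin receptors. The tenascins, thrombospondins, periostin and osteopontin are called matricellular, since they mainly signal to cells and regulate matrix rather than build its scaffold. In arteries several of them are known for low levels in resting smooth muscle and for induction after injury.

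Bulk RNA-seq libraries were made from aortas of 3 control mice and 3 Prdm16 iSM KO mice, all male and on a C57BL/6 background. Both groups carried the Myh11-CreERT2 transgene, in which the Myh11 promoter drives a tamoxifen-activated Cre recombinase in smooth muscle cells, and both received tamoxifen from 8 weeks of age, followed by a washout of 2 weeks and another 60 days. The transgene is on the Y chromosome. In iSM KO mice both Prdm16 alleles had loxP sites around exon 9, and the controls were littermates with wild-type alleles. The adventitia, the outer coat of the vessel, was stripped before extraction, and the aortas were taken at baseline, without injury. Mice without Cre were not analysed here. Exon 9 is deleted in cells whose Myh11 promoter was active at tamoxifen, and in their progeny. Cells of other origin are meant to keep an intact Prdm16, and which cell types did so at harvest was not tested here. Whether fewer cells of a type or less RNA per cell lies behind a lower count cannot be told apart in bulk tissue.

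Libraries held 24911609 to 40460467 counts, lowest in Control 3. Values are counts per TMM-scaled library total (CPM), which are comparable between libraries but not between genes of different length. Prdm16 itself, which is counted over the whole gene and not over the deleted exon, was at 183, 223 and 179 CPM in Controls 1 to 3, against 93.8, 113 and 79.8 CPM in iSM KO 1 to 3, without overlap. The defining smooth muscle marker Myh11 was between 7431 and 8276 CPM in controls, against 8572 to 9235 CPM in iSM KO (log2 fold change 0.21, edgeR FDR = 0.333). Of 8 smooth muscle markers, Myocd (0.65, FDR = 0.0109) and Des (1.24, FDR = 0.00381) rose, and Acta2 (-0.14, FDR = 0.660) and Smtn (-0.03, FDR = 0.902) had negative log2 fold changes. Markers of other cells were present and varied. The summed level of 10 fibroblast markers was 742 to 1054 CPM in controls, against 599 to 753 CPM in iSM KO, and that of 8 endothelial markers 527 to 1098 and 289 to 829 CPM. Adipocyte markers summed to 37.4 to 138 CPM in controls, against 22.8 to 26.6 CPM in iSM KO. Control 2 stood apart from the other controls, with 1961 CPM in the sum of 12 immediate early genes against 895 and 855 CPM in Controls 1 and 3. It was the highest control for 7 of the 10 glycoprotein genes, at 2.17 times the mean of the other controls for Thbs1 and 1.23 times for Thbs3, and for 32.1% of all tested genes.

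In the comparison of iSM KO with control aortas, Thbs3 fell and no other gene of the group passed an FDR of 0.05 in edgeR's quasi-likelihood test. Of the 9 genes with enough counts to be tested this is 1 gene, where 7.56% of the 16565 tested genes passed, 3.30% with lower and 4.26% with higher values in iSM KO. No gene of the group passed with a higher value. The fold change of Thbs3 was under 2, as was that of each of the other 8 genes, and 2.78% of all tested genes passed the FDR with a fold change over 2. At an unadjusted p under 0.05 the number is 4, namely Tnc, Tnxb and Thbs3 with lower and Thbs2 with higher values in iSM KO. Thbs2 had the largest p of these 4 (0.0489 with edgeR). It ranked 3633 by p among the 16565 tested genes, so an unadjusted p under 0.05 was common over all genes. The libraries of the groups did not overlap for 5 of the 9 genes, with Tnc, Tnxb, Postn and Thbs3 lower and Thbs2 higher in all iSM KO libraries. Over all tested genes, 27.9% did not overlap, 13% with lower and 15.0% with higher values in iSM KO. The median log2 fold change of the 9 genes was -0.26, with 6 negative and 3 positive values, and that of all tested genes was -0.014.

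**Figure D1:**
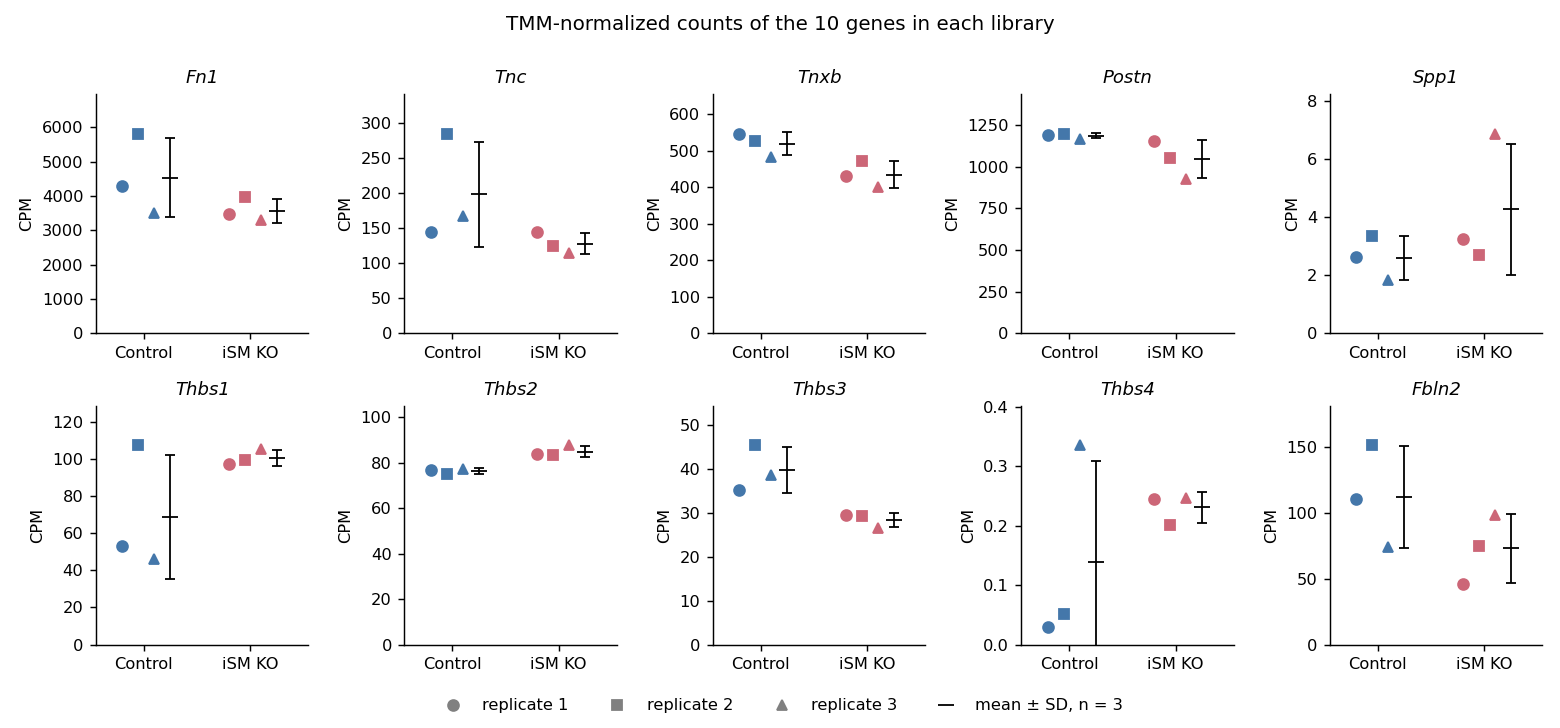
Normalized counts (CPM, linear axes from 0) of the 10 genes in each library, where points are single mice, shaped by replicate number, and bars give the mean ± SD of 3 mice. The Thbs3 points of iSM KO mice, 26.6 to 29.5 CPM, lie below all controls, and Control 2 is the highest control for 7 of the 10 genes, Thbs3 among them.

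The level of a gene relative to others was read per length, as CPM per kb of merged exons in the GENCODE annotation of GRCm38. In control aortas Fn1 led with 389 ± 99.6 CPM per kb and Postn followed with 136 ± 1.72 (SD, n = 3). Among 16534 tested genes with a length they ranked 62 and 171. Tnxb was at 42.5 ± 2.58 and Tnc at 25.5 ± 9.65 CPM per kb (SD, n = 3). Each of these 4 genes was above the next in all controls. Over the controls, Tnc overlapped Fbln2 at 17.6 ± 6.05, Fbln2 overlapped Thbs1 at 11.3 ± 5.54, and Thbs1 overlapped Thbs2 at 10.9 ± 0.17 CPM per kb (SD, n = 3). Within each single control, Tnc was above Fbln2 and Fbln2 above Thbs1, while Thbs1 was above Thbs2 in Control 2 alone. Thbs3, at 8.24 ± 1.09, was below Thbs2 in all controls. Spp1 was at 1.58 ± 0.46 and Thbs4 at 0.042 ± 0.052 CPM per kb (SD, n = 3). In iSM KO aortas the levels per kb of Thbs1 were 16.0 to 17.4 and those of Thbs2 11.9 to 12.5, so that the pair did not overlap. Fbln2, at 7.26 to 15.4 CPM per kb, was below Thbs1 in all iSM KO libraries, the opposite of their order within each control.

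Fn1 encodes fibronectin, the ligand of integrin α5β1. It lies on the minus strand at chr1:71585520-71653200. Its level was 4301, 5806 and 3516 CPM in Controls 1 to 3, and 3469, 3962 and 3289 CPM in iSM KO 1 to 3. Control 2 was the highest of all libraries, and iSM KO 2 was above Control 3. The log2 fold change was -0.35 (standard error, SE, 0.18, 95% interval -0.76 to 0.06, FDR = 0.302 with edgeR), and -0.13 without Control 2. Fn1 alone held 0.337% to 0.594% of all counts in a library, between 63.1% and 70.8% of the counts of the 10 genes. Fn1 shares runs of at most 198 bp with other genes. Alternative exons of fibronectin cannot be read from counts of whole genes.

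Tenascin-C and tenascin-X are large matrix glycoproteins with opposite associations, Tnc with remodelling tissue and Tnxb with mature connective tissue, where loss of tenascin-X causes a form of Ehlers-Danlos syndrome. Tnc lies on the minus strand at chr4:63959785-64047015. It was at 145, 284 and 167 CPM in Controls 1 to 3 and at 144, 125 and 115 CPM in iSM KO 1 to 3. The groups did not overlap, but Control 1 and iSM KO 1 differed by less than 1 CPM and Control 2 was far above the rest. Its log2 fold change was -0.64 (SE 0.22, edgeR FDR = 0.136), and -0.28 without Control 2.

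Tnxb lies on the plus strand at chr17:34670535-34719815. It was at 545, 527 and 484 CPM in controls and at 431, 472 and 399 CPM in iSM KO. The highest iSM KO library, number 2, was just under the lowest control, number 3. This gave a log2 fold change of -0.26 (SE 0.10, 95% interval -0.47 to -0.04, FDR = 0.156). Tnxb shares a run of 1090 bp at 97.6% identity with Tnxa, whose own count was between 1 and 11 in all libraries, and how the counting treated shared reads is not stated. Fibroblasts, a known source of tenascin-X, had lower marker values in iSM KO, with negative log2 fold changes for 10 of 10 fibroblast markers, of which Clec3b passed the FDR. None of the 10 was at 0 in a library. Their sum was 1054, 742 and 853 CPM in Controls 1 to 3 and 599, 639 and 753 CPM in iSM KO 1 to 3. Tnxb was highest in Control 1, where this sum was highest. It was lowest in iSM KO 3, which had the highest sum among iSM KO libraries. The part of fibroblast RNA in the Tnxb values was not tested. The within-library difference of Tnc from Tnxb on the log2 scale was -1.45 ± 0.52 in controls and -1.77 ± 0.17 in iSM KO (SD, n = 3; exact permutation test, two-sided, p = 0.4, adjusted p = 0.467 over 7 pairs).

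Postn encodes periostin, a matricellular protein that binds integrins and aids the cross-linking of collagen. It lies on the plus strand at chr3:54361109-54391037. Its level was 1193, 1197 and 1169 CPM in controls and 1158, 1051 and 929 CPM in iSM KO. The controls were close together, with an SD of log2 CPM of 0.018 where the median of tested genes was 0.19, and the iSM KO libraries reached from just below them to clearly lower. The log2 fold change was -0.18 (SE 0.10, 95% interval -0.42 to 0.05, FDR = 0.343).

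Fbln2 encodes fibulin-2, which links fibronectin with elastic fibres and basement membranes. It lies on the plus strand at chr6:91212455-91272540. It was at 111, 152 and 74.5 CPM in controls and at 46.3, 75.2 and 98.2 CPM in iSM KO. The groups overlapped, and the spread within each was among the widest of the 10 genes. The log2 fold change was -0.62 (SE 0.29, 95% interval -1.28 to 0.04, FDR = 0.255). The summed endothelial markers were 908, 1098 and 527 CPM in Controls 1 to 3 and 289, 498 and 829 CPM in iSM KO 1 to 3. Fbln2 was high in the libraries where this sum was high, in both groups. All 8 endothelial markers were detected in every library and none passed the FDR. The part of endothelial RNA in the Fbln2 values was not tested.

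Thrombospondins are calcium-binding glycoproteins of 2 subgroups. Thbs1 and Thbs2 form trimers, hold type 1 repeats and inhibit angiogenesis through CD36 and CD47, while Thbs3, Thbs4 and Comp, the gene of cartilage oligomeric matrix protein, form pentamers without type 1 repeats. Thbs1 also activates latent TGF-β. Thbs1 lies on the plus strand at chr2:118111876-118127133. Its level was 53.2, 107 and 45.9 CPM in Controls 1 to 3 and 97.2, 99.8 and 106 CPM in iSM KO 1 to 3. The iSM KO libraries were close together and above Controls 1 and 3, and Control 2 was above them all. With all libraries the log2 fold change was 0.55 (SE 0.27, edgeR FDR = 0.272). Without Control 2 it was 1.03 (FDR = 0.00116), and in the other 5 fits that left out a library the FDR was between 0.402 and 0.534. Thbs1 is itself an early gene that serum induces within hours. The sum of the immediate early genes in iSM KO libraries, 687 to 785 CPM, was below that of every control. Log2 fold changes were negative for 10 of the 12, and 3 (Fos, Ier2 and Dusp1) passed the FDR. They were positive for Egr1 and Egr3, which did not pass. Egr1 was at 147, 338 and 119 CPM in Controls 1 to 3 and at 203, 231 and 223 CPM in iSM KO 1 to 3. Egr3 was at 13.7, 32.3 and 14.6 CPM in controls and at 24.1, 27.4 and 30.1 CPM in iSM KO. The part of the high immediate early level of Control 2 in the Thbs1 values was not tested.

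Thbs2 lies on the minus strand at chr17:14665500-14694235. It was at 76.9, 75.0 and 77.2 CPM in controls and at 83.9, 83.3 and 87.7 CPM in iSM KO. Every iSM KO library was above every control. The log2 fold change was 0.15 (SE 0.07, 95% interval 0.00092 to 0.31), with an FDR of 0.223 from edgeR. The spread within each group was small, 1.19 CPM for controls, against 2.37 CPM in iSM KO (SD, n = 3).

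Thbs3 lies on the plus strand at chr3:89215180-89226837. It was at 35.2, 45.5 and 38.6 CPM in Controls 1 to 3, a mean of 39.7 ± 5.24 CPM, and at 29.5, 29.2 and 26.6 CPM in iSM KO 1 to 3, a mean of 28.5 ± 1.61 CPM (SD, n = 3). The highest iSM KO library was under the lowest control. Thbs3 fell by 0.48 on the log2 scale (SE 0.11, 95% interval -0.72 to -0.24, FDR = 0.0269 from edgeR's quasi-likelihood test), to 0.716 of the control level. Of 6 fits with 1 library left out it passed the FDR in 2, and it did not without Control 3 or without any one of the iSM KO libraries, where the FDR was 0.0624 to 0.0989 and the log2 fold change -0.51 to -0.44. On the other strand, transcripts of Mtx1, a gene of the mitochondrial outer membrane, share 318 exonic bases with Thbs3, and the use of strand in counting is not stated. Mtx1 was at 14.6 ± 0.30 CPM in controls, against 15.3 ± 1.51 CPM in iSM KO (SD, n = 3), and its log2 fold change was 0.069 (edgeR FDR = 0.730). With the counts of both genes summed, an alternative chosen after seeing the data, the log2 fold change was -0.31 (FDR = 0.0544). As Mtx1 itself differed little, adding it shrinks the fold change whether or not reads were misassigned, so the sum cannot decide this.

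The tested genes nearest to Thbs3 in pattern, by the root mean square difference of centred log2 CPM over the 6 libraries, were Tro at 0.054, Fzd7 at 0.054 and Tlcd5 at 0.063. None of the 3 passed the FDR (edgeR FDR = 0.0561 for Tro, 0.0568 for Fzd7 and 0.0585 for Tlcd5). Fzd7, a Wnt receptor, was at 145, 188 and 156 CPM in controls, against 124, 131 and 107 CPM in iSM KO. The likeness is a description over 6 libraries that fall into 2 groups.

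Thbs4 lies on the minus strand at chr13:92751590-92794818. Its counts were 1, 2 and 8 in controls and 10, 7 and 9 in iSM KO, and no group reached the filter of a count over 10 in all its libraries. With no filter on low counts edgeR gave a log2 fold change of 0.85 (SE 0.84, FDR = 0.705).

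Among the 4 thrombospondin genes and the tenascins, 7 pairs were compared by the difference of log2 CPM within a library. The difference Thbs1 minus Thbs3 was 0.70 ± 0.50 in controls and 1.82 ± 0.14 in iSM KO, and Thbs2 minus Thbs3 was 0.95 ± 0.21 in controls and 1.58 ± 0.12 in iSM KO (SD, n = 3). For both pairs every iSM KO library was above every control (exact permutation test, two-sided, p = 0.1, adjusted p = 0.35), and an unadjusted p of 0.1 is the smallest that 3 against 3 libraries allow. Thbs1 minus Thbs2 shifted by 0.50 from controls to iSM KO (exact permutation p = 0.4), with Control 2 above all iSM KO libraries. The 3 pairs with Thbs4 rest on its few counts and gave exact permutation p-values of 0.2 to 0.9.

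Spp1 encodes osteopontin, a phosphoprotein of bone and of activated macrophages that binds CD44 and αv integrins. It lies on the plus strand at chr5:104435118-104441050. It was low in all libraries, at 2.63, 3.36 and 1.84 CPM in controls and at 3.26, 2.69 and 6.87 CPM in iSM KO. Only iSM KO 3 was above the controls, and its raw count of 251 compares with 44 to 133 in the other 5 libraries. The log2 fold change was 0.70 (SE 0.36, 95% interval -0.13 to 1.52, FDR = 0.302 from edgeR), and 0.17 without iSM KO 3. The sum of 10 macrophage markers was 43.6 CPM in iSM KO 3, against 16.2 and 17.6 CPM in iSM KO 1 and 2 and 36.8 to 43.8 CPM in controls. Their part in the Spp1 values was not tested.

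**Figure D2:**
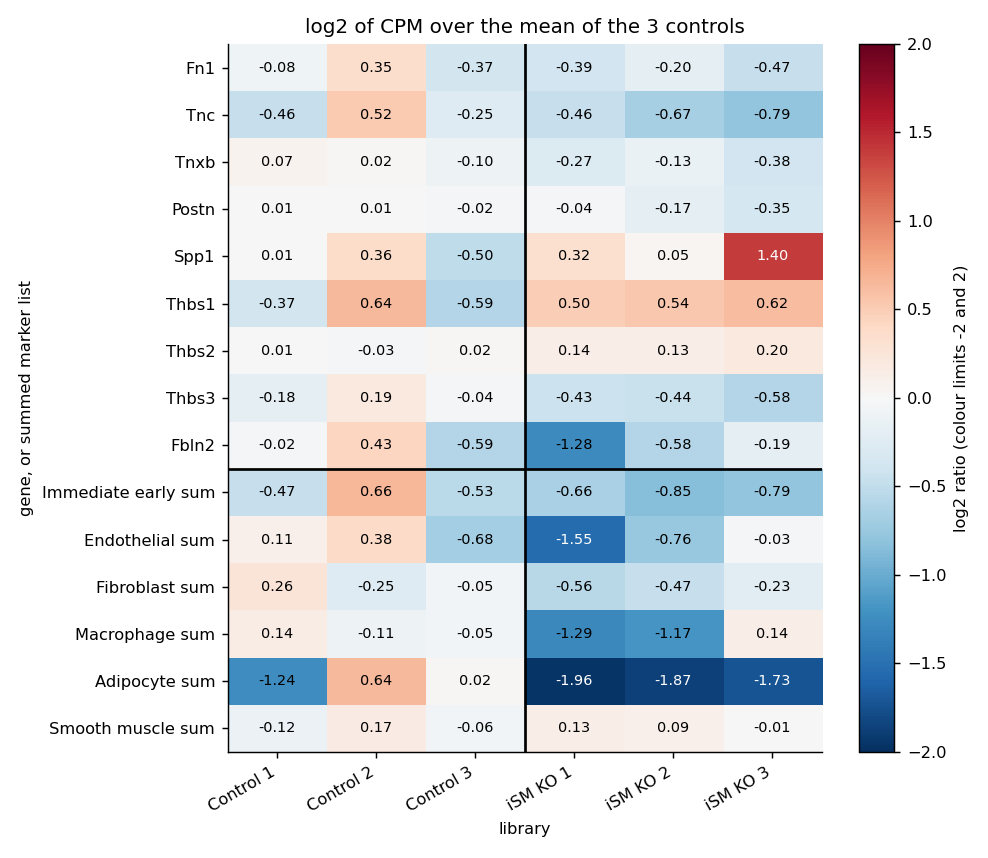
Level of each tested gene (rows above the line) and summed level of marker lists (rows below) in each library, as log2 of CPM over the mean of the 3 controls. Control 2 is at 0.64 for Thbs1, 0.52 for Tnc and 0.66 for the immediate early sum, and Fbln2 and the endothelial sum are lowest in iSM KO 1, at -1.28 and -1.55.

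The receptors, relatives and enzymes of these glycoproteins were read from 3 lists. Itgb6, Hmcn1, Dmp1, Mepe and Tll1 had too few counts to be tested. Of the 35 tested genes, 10 passed the FDR, 5 with higher and 5 with lower values in iSM KO. This is 28.6%, beside 7.56% of all tested genes, and no test of the lists was made, since they were written with earlier results of these data known. The groups did not overlap for 18 of the 35 genes, beside 27.9% of all tested genes.

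Among 14 tested receptor genes Cd44 and Itga5 rose. Cd44, the hyaluronan receptor that also binds osteopontin, was at 32.4, 37.3 and 25.7 CPM in controls and at 117, 102 and 91.4 CPM in iSM KO. Every iSM KO library was more than 2-fold above every control. Cd44 rose by 1.70 on the log2 scale (SE 0.14, edgeR FDR = 2.51e-04). Itga5, the α5 chain of the main fibronectin receptor, was at 309, 424 and 295 CPM in controls and at 694, 736 and 556 CPM in iSM KO. It rose by 0.95 on the log2 scale (SE 0.16, edgeR FDR = 0.00797). Both genes passed the FDR in all 6 fits that left out 1 library. Its partner Itgb1 was at 1231 ± 105 and 1446 ± 34.2 CPM (SD, n = 3). Its log2 fold change of 0.23 did not pass (edgeR FDR = 0.208), and the difference between the chains was not tested.

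Itgb8, a β chain that pairs with αv and activates latent TGF-β, was at 23.8, 17.4 and 24.0 CPM in controls, against 14.3, 13.7 and 14.6 CPM in iSM KO. It fell by 0.61 on the log2 scale (edgeR FDR = 0.0243). With a library left out it passed in the fit without Control 2 alone, with FDR values of 0.0514 to 0.106 in the other 5. Cd36, the scavenger receptor of Thbs1 and Thbs2, fell by 2.52 on the log2 scale (edgeR FDR = 0.0232). It passed without Control 1 or iSM KO 3 and not without any of the other 4 libraries, where the FDR was 0.057 to 0.0954. Cd36 is also high in adipocytes and capillary endothelium. It was at 2.54, 10.4 and 9.39 CPM in Controls 1 to 3 and at 1.13, 0.72 and 2.03 CPM in iSM KO 1 to 3. In those controls the summed adipocyte markers were 37.4, 138 and 89.8 CPM. Of 7 tested adipocyte markers, 5 fell and Pparg rose, Adipoq and Plin1 were detected in every library, and their part in the Cd36 values was not tested. The other tested receptors did not pass. Nearest to the threshold were Itga4, at 9.46, 5.75 and 7.04 CPM in controls, against 10.5, 13.8 and 12.3 CPM in iSM KO (log2 fold change 0.72, edgeR FDR = 0.0517), and Sdc4, with a log2 fold change of 0.40 (FDR = 0.0569). Both were higher in every iSM KO library than in every control. The same held for Itgav and Itgb1, and Itga8 and Itgb5 were lower in every iSM KO library than in every control. Itgav had a log2 fold change of 0.20 (FDR = 0.161), Itgb3 of -0.08 (FDR = 0.783), Itga8, the α chain with the highest count of the list, of -0.33 (FDR = 0.122), Itga9, a tenascin-C and osteopontin receptor, of -0.14 (FDR = 0.523) and Cd47 of -0.26 (FDR = 0.238).

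**Figure D3:**
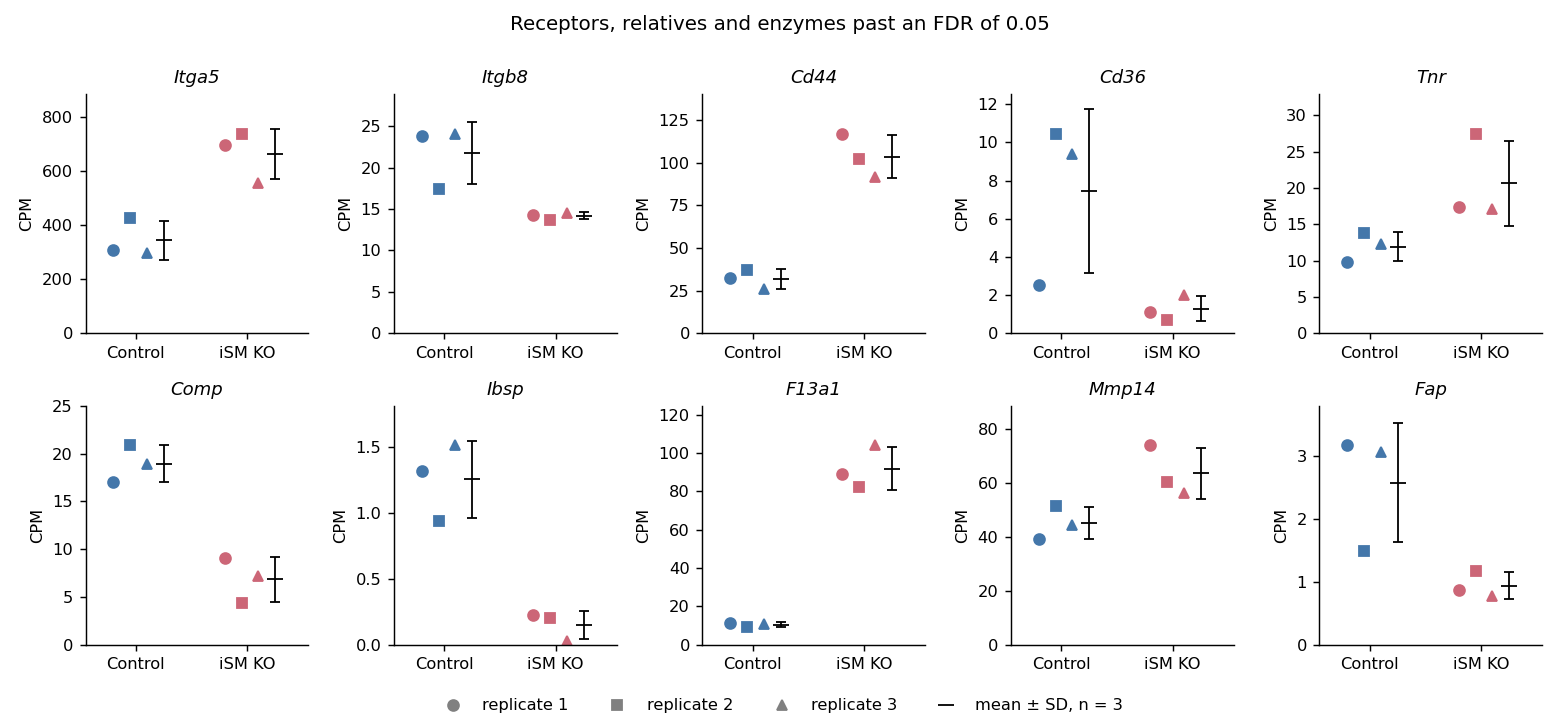
Normalized counts (CPM, linear axes from 0) of the 10 receptor, relative and enzyme genes past an FDR of 0.05, with single mice as points and mean ± SD of 3 mice as bars. Cd44 (25.7 to 37.3 against 91.4 to 117 CPM) and F13a1 (9.03 to 11.3 against 82.3 to 104 CPM) are higher in all iSM KO mice, and Comp (17.0 to 20.9 against 4.30 to 9.03 CPM) is lower in all of them.

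Among 10 tested relatives, Comp and Ibsp fell and Tnr rose. Comp, the fifth thrombospondin, was at 17.0, 20.9 and 18.9 CPM in controls and at 9.03, 4.30 and 7.17 CPM in iSM KO, without overlap. Its log2 fold change of -1.47 (SE 0.23, edgeR FDR = 0.00571) was larger in size than the -0.48 of Thbs3, a difference that was not tested. Ibsp, bone sialoprotein of the osteopontin family, was low, with counts of 44, 36 and 36 in controls and 9, 7 and 1 in iSM KO (log2 fold change -3.01, FDR = 0.00863). Comp and Ibsp passed in all 6 fits that left out 1 library. Tnr, tenascin-R, best known from the nervous system, was at 9.76, 13.8 and 12.2 CPM in controls, against 17.3, 27.4 and 17.1 CPM in iSM KO. It rose by 0.79 on the log2 scale (edgeR FDR = 0.0484), passed without Control 2 or iSM KO 3, and did not without the other 4 libraries, where the FDR was 0.0595 to 0.140. Tnn, the gene of tenascin-N, was at 0.66 ± 0.28 and 0.38 ± 0.14 CPM (SD, n = 3; FDR = 0.349). Tgfbi, the periostin paralog, was at 22.7 ± 6.89 and 17.3 ± 4.15 CPM (SD, n = 3; FDR = 0.347).

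Among 11 tested enzymes F13a1 and Mmp14 rose and Fap fell. F13a1, the catalytic subunit of coagulation factor XIII, which cross-links fibronectin, was at 11.3, 9.03 and 10.6 CPM in controls, against 89.2, 82.3 and 104 CPM in iSM KO (log2 fold change 3.16, FDR = 4.06e-06 from edgeR). F13a1 is also a macrophage gene, and none of the 9 tested macrophage markers passed the FDR, all 9 with negative log2 fold changes. The part of these cells in the F13a1 values was not tested. Mmp14, a membrane protease that cleaves fibronectin, was at 39.3, 51.3 and 44.4 CPM in controls, against 74.0, 60.4 and 56.1 CPM in iSM KO. It rose by 0.50 on the log2 scale (edgeR FDR = 0.0489), passed without Control 2 or iSM KO 3, and did not without the other 4 libraries, where the FDR was 0.128 to 0.164. Fap, a serine protease of activated fibroblasts, was at 3.16, 1.48 and 3.06 CPM in controls, against 0.86, 1.17 and 0.77 CPM in iSM KO. It fell by 1.45 on the log2 scale (edgeR FDR = 0.0355), and with a library left out it passed in the fit without Control 2 alone, with FDR values of 0.0745 to 0.118 in the other 5.

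**Figure D4:**
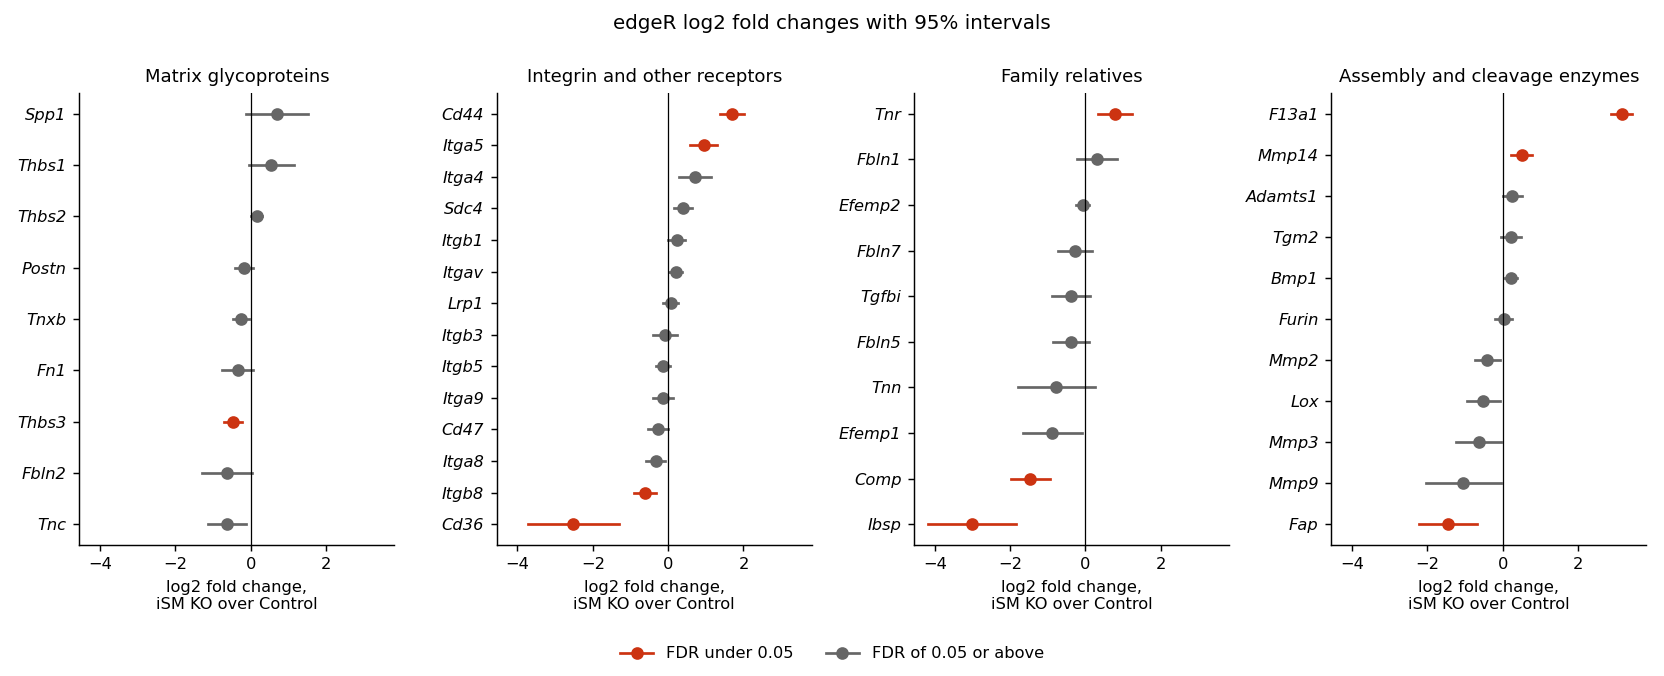
edgeR log2 fold changes of iSM KO over Control (points) with 95% intervals (lines) for the 9 tested glycoprotein genes and the tested genes of the 3 related lists, in red where the FDR is under 0.05. Thbs3 at -0.48 is the red point among the glycoproteins, while Cd44, Itga5, F13a1, Comp and Ibsp lie further from 0.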

How the data were processed

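Ribosomal RNA was depleted and paired-end reads were sequenced. The authors quantified them with DRAGEN on mm10 (Ensembl annotation), and the values they deposited are estimated counts for each gene, with decimals and without normalization. Strand use and the handling of multi-mapping reads are not given in the sources used here. All 6 columns were matched to samples by title. The labels number the libraries, and the methods of the study give 3 mice in each group. The p-values set the difference between groups against the spread between these animals.

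Counts were rounded. A gene was tested where every library of either group had more than 10 counts. The test was the quasi-likelihood F test of edgeR 4.0.16 under R 4.3.3 (TMM scaling, group as the only term, Benjamini-Hochberg adjustment over 16565 genes). The standard error is the log2 fold change over the square root of F, and the 95% interval uses the moderated degrees of freedom. Log2 CPM for pairs and patterns used a prior count of 2. Positions, lengths and overlaps are from GENCODE M21 (GRCm38), and copies are blastn 2.17.0 matches of at least 95% over 100 bp. The edgeR, DESeq2 and limma-voom fits were run on simulated counts with the same spread for both groups. This does not test them at the unequal spread of these groups. Pairs of libraries differed by more than sampling noise, and controls differed more among themselves. The chi-square per degree of freedom was 48.3 to 71.7 between controls and 12.2 to 19.5 between iSM KO libraries. Across groups it was 52.2 to 82.3. The median SD of log2 CPM was 0.19 in controls and 0.13 in iSM KO.

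All 10 glycoprotein genes are named. Of the lists, genes with an FDR under 0.05 and, whatever their result, 13 receptors and relatives chosen by role are named (Itga5, Itgav, Itgb1, Itgb3, Itga8, Itga9, Cd44, Cd47, Cd36, Tgfbi, Comp, Tnn and Tnr), with the 3 genes nearest to Thbs3 in pattern. Itga4, Itgb5, Sdc4, the untested list genes, Mtx1 and the markers named were added after their values were seen. The genes and lists were chosen with earlier results of these data known. Other marker lists, of Schwann cells, skeletal muscle and tendon, and cardiomyocytes, summed to at most 74.6, 24.0 and 4.24 CPM in a library. The alternatives were DESeq2 1.42.0, limma-voom 3.58.1, other scalings and filters, the replicate number as a block and each library left out.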

Additional observations from a re-analysis of the deposited data

How the results depend on the processing

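All 118 log2 fold changes of the 9 tested glycoprotein genes under the alternatives kept their sign. Thbs3 did not pass the FDR with the replicate number as a block (log2 fold change -0.48, FDR = 0.0569), and ranged from -0.56 to -0.37 with a library left out. It also did not pass with Mtx1 counts added (-0.31), where the smaller size follows from adding a gene that differed little. Without the filter on low counts Tnc passed (-0.63, FDR = 0.0107), giving 2 lower genes of the group. Thbs1 ranged from 0.32 to 1.03 with a library left out. The number of higher genes of the group was 0 to 1 and of lower ones 0 to 1 in those fits, and with the block 0 were lower. Same-numbered libraries of the 2 groups did not deviate together (r = -0.13, -0.046 and -0.11 across genes), and no library correlated best with its own number. With 3 libraries in a group this cannot decide whether mice were paired, and no pairing is stated.

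Over all tested genes, 705 were higher and 547 lower, 457 and 318 with the block, 863 lower without the filter, and 313 to 764 higher and 203 to 638 lower with a library left out, fewest without iSM KO 2 (313 and 203) and iSM KO 1 (383 and 241). Of the receptors, 4 were higher with DESeq2, with total library counts and without the filter, 1 was lower with limma-voom, and 0 to 1 were lower with a library left out. Of the relatives, 0 were higher with limma-voom and filterByExpr, and 0 to 1 with a library left out. Of the enzymes, 1 was higher with limma-voom, total counts, filterByExpr and the block, and 1 to 2 with a library left out. Lower enzymes numbered 0 with limma-voom and the block, 3 without the filter and 0 to 2 with a library left out. The cause of these shifts was not tested. The difference Thbs1 minus Thbs4 changed sign without Control 1 (0.051) or Control 2 (0.40), ranged from -1.14 to 0.40 with a library left out, and rests on few Thbs4 counts.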
